A study of Mus musculus with 34 samples.

Results

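Expression of 36 genes of glycolysis and the hypoxia response was examined in 2 mouse embryonic stem (ES) cell lines. The genes were taken by symbol from a list, and every array probe set that carried 1 of these symbols alone was collected. Of the 36 genes, 32 had at least 1 ordinary probe set of this kind (70 probe sets in all), and 30 were bright enough to be tested, among 14060 tested genes of 18193 named on the arrays. Each gene was represented by its brightest probe set, and values of other probe sets are named as such.

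C2 and D4 are C57BL/6 ES cell lines from blastocysts. Total RNA of each line was hybridised to the Affymetrix arrays MOE430A and MOE430B in 3 states: early passage, late passage attached and late passage detached. Each line and state had 3 RNAs, except detached D4 with 2, which gave 17 RNAs on 34 arrays. Early-passage cells were cultured in DMEM containing 15% fetal bovine serum, and per the labels they gave low chimerism without germline transmission. Late-passage cells were cultured in Thromb-XTX-WES medium, and per the labels they gave high chimerism and entered the germ line. Passage, medium and chimerism therefore differed together and cannot be told apart. LIF, pyruvate, non-essential amino acids, beta-mercaptoethanol and glutamine were added to both media, at 5% CO2 and 37 C. The labels do not state an oxygen level. All cells grew on mouse embryonic fibroblast feeders, and the preparations were put at about 90% pure (over 90% for early D4). In every group the cells were loosened by a light trypsin treatment meant to leave feeders behind, and the suspension was then placed on a new plate for 1 hour. To what the cells were attached, and whether RNAs of a group were separate cultures, is not stated, so p-values measure a spread between RNAs that may be technical.

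Glycolysis turns glucose into pyruvate, which is either reduced to lactate or oxidised in mitochondria after pyruvate dehydrogenase. In low oxygen the prolyl hydroxylases of the Egln family stop marking the transcription factor subunit HIF-1 alpha for destruction, and HIF-1 then raises glucose transporters, glycolytic enzymes, pyruvate dehydrogenase kinases and genes such as Vegfa. ES cells in culture are known for a high rate of glycolysis.

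HIF-1 binds short elements with the core ACGTG or GCGTG. RefSeq sequences (GRCm38.p6) of the 250 bases before an annotated start were found for 33 of the 36 genes, and both cores were searched on both strands, so that CACGT and CACGC are the same cores read from the other strand; overlapping matches were counted separately. At least 1 promoter of 30 of these 33 genes (90.9%) held a core, against 41.5% of 27025 genes with a RefSeq promoter. A match is a description of these letters, not a binding site. The promoters of Pdk1, Vegfa and P4ha1 are shown because these genes had the probe sets that passed the test between late and early passage; capitals mark the cores. The upstream Pdk1 window (chr2:71872974-71873223, plus strand) had GCGTG at position -78 from the start, and the P4ha1 window (chr10:59323046-59323295, plus strand) had cores at -163, -126 and -16. The upstream Vegfa window (chr17:46032378-46032627, minus strand) had none of these letters. Windows before further annotated starts, not shown, had no core for Pdk1 and cores at -218 and -211 for Vegfa.
Pdk1: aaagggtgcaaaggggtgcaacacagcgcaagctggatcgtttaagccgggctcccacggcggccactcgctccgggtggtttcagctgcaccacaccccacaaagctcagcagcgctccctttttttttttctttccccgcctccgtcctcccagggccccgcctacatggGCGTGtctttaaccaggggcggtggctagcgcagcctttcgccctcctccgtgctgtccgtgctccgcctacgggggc
P4ha1: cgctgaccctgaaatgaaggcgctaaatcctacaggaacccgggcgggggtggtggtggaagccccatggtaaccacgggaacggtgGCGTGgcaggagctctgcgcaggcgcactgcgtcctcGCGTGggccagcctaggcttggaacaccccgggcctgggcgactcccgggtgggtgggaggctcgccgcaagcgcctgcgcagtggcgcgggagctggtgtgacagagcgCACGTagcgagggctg
Vegfa: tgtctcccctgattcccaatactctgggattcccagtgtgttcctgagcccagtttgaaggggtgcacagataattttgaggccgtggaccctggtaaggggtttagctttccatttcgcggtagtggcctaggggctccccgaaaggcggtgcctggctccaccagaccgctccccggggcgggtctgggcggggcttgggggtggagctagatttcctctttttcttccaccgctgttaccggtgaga

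Values below are log2(signal + 16), where the signal is the array intensity of a probe set, so differences between dim probe sets are understated. A gene was called at a Benjamini-Hochberg adjusted p under 0.05 in limma, a linear model test that shares variance information across all probe sets of an array type. Levels of different probe sets are not compared. Late passage is the mean of the attached and detached states, and contrasts are averaged over both lines. The 5th percentile of the signal on MOE430A was 109 in attached C2 replicate 1 and at most 37.6 elsewhere, and the 3' to 5' ratio of the Actb control, which rises as RNA degrades, was 1.84 in attached D4 replicate 3 and at most 1.21 elsewhere.

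Transcripts of fibroblast marker genes, listed to follow the feeders, differed with the states. The mean of 21 fibroblast marker genes was 11.19 to 12.1 in the 6 early RNAs and 9.24 to 11.1 in the 11 late RNAs, with no overlap. It was 11.01 ± 0.08 (SD, n = 3) in attached and 9.68 ± 0.38 (n = 3) in detached C2, and 10.73 ± 0.29 (n = 3) and 9.31 ± 0.11 (n = 2) in D4. Early D4, labelled over 90% pure, had the highest mean of the groups, 11.84 ± 0.26 (n = 3). Genes such as Vim, Acta2 and Ccn2 are also expressed by other cells, differentiating ES cells among them, and whether the transcripts came from feeders was not tested. In limma, 14 of 19 tested fibroblast markers were lower in late passage and 2 of the 21 lay below the array median on all arrays. The mean of 12 ES cell markers was 12.65 to 13.52 in early and 12.99 to 13.62 in late RNAs, so the cells carried the markers of their label in every state. The mean of 12 extraembryonic endoderm markers was 8.78 to 9.10 in early and 9.01 to 9.82 in late RNAs. In limma, 1 of 12 tested ES cell markers (Sox2) and 2 of 11 tested endoderm markers (Lama1 and Dab2) were called higher in late passage. None of either list was called lower. In bulk RNA, fewer cells of a type and less RNA per cell cannot be told apart.

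Between late and early passage, 2 of the 30 tested genes passed the test. Pdk1 rose and Vegfa fell, while no glucose transporter, hexokinase or other glycolytic enzyme was called. Over all tested genes 0.576% were called higher and 1.28% lower in late passage, and with 1 gene of the 30 in each direction no more is read from the count. The changes of the 30 genes had a median of -0.11 (9 above and 21 below 0), against -0.02 over all tested genes. An unadjusted limma p under 0.05 was reached by 5 of the 30, and by 15.2% of all tested genes. Counting probe sets, 4 of 60 were called, against 1.59% of all probe sets tested: 2 of Pdk1, 1 of Vegfa and 1 of P4ha1. No gene of the 30 had late and early RNAs without overlap at its brightest probe set. Such a separation was shown by 0.562% of all tested genes. How many genes separate within a line, or in a single late state against early passage, was not counted.

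Pdk1 encodes a kinase that phosphorylates and shuts off pyruvate dehydrogenase, which keeps pyruvate out of mitochondrial oxidation. At its brightest probe set (1423748_at) early C2 read 11.56, 12.81 and 11.89 and early D4 read 11.46, 11.96 and 11.66. Late C2 read 11.96, 12.70 and 12.86 attached and 12.88, 12.39 and 12.98 detached. Late D4 read 12.91, 12.38 and 12.87 attached and 12.81 and 12.76 detached. Every late D4 RNA lay above every early D4 RNA, and in C2 a single early RNA, at 12.81, lay among the late ones. The change was 0.80 on the log2 scale (SE 0.198, 1.74-fold, limma adjusted p = 0.041).

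The dimmer Pdk1 probe set on MOE430A (1423747_a_at) separated the states further. Its 6 early RNAs had 9.27 as lowest, 10.26 as median and 10.66 as highest value, and its 11 late RNAs 10.52, 11.52 and 12.10. Only attached C2 replicate 1, at 10.52, fell into the early range. The change was 1.30 (SE 0.217, 2.46-fold, limma adjusted p = 0.00564), with 0.83 (SE 0.3) in C2 and 1.77 (SE 0.313) in D4. Within D4 alone this probe set was called (limma adjusted p = 0.0195), and within C2 it was not (adjusted p = 0.316). The remaining Pdk1 probe sets, both on MOE430B, were 0.98 (SE 0.275, limma adjusted p = 0.228) and 0.39 (SE 0.456) and were not called; all early D4 arrays and 1 early C2 array of MOE430B came from a second chip lot, whose part in these values was not tested.

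Vegfa encodes a secreted growth factor for blood vessels and is a classic target of HIF-1. At its brightest probe set (1451959_a_at) early C2 read 10.76, 10.50 and 11.02 and early D4 11.13, 11.01 and 10.50. Attached C2, at 10.48, 10.77 and 10.68, lay close to the early range, whereas detached C2 read 8.36, 9.51 and 10.31. Late D4 read 9.76, 9.88 and 9.80 attached and 9.63 and 10.18 detached, all below the early D4 RNAs. The change was -0.88 (SE 0.227, 0.543-fold, limma adjusted p = 0.0497). The dimmer probe set (1420909_at) had a change of -0.98 (SE 0.484, limma adjusted p = 0.303), made of 0.05 in C2 and -2.02 in D4.

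P4ha1 encodes a catalytic subunit of the collagen prolyl 4-hydroxylase, which modifies collagen chains and is also induced by HIF-1. Its dimmer probe set (1426519_at) read 9.63, 9.47 and 9.74 in early C2 and 9.72, 9.82 and 9.51 in early D4. Attached C2 read 9.21, 9.49 and 9.51 and attached D4 9.03, 9.39 and 9.12, while the 5 detached RNAs lay between 8.64 and 9.05. The detached RNAs were thus below all early RNAs, and the attached ones reached into the early range in C2. This probe set fell by 0.53 on the log2 scale (SE 0.108, limma adjusted p = 0.017); the brightest P4ha1 probe set had a change of -0.52 (SE 0.305, adjusted p = 0.396) and was not called.

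**Figure D1:**
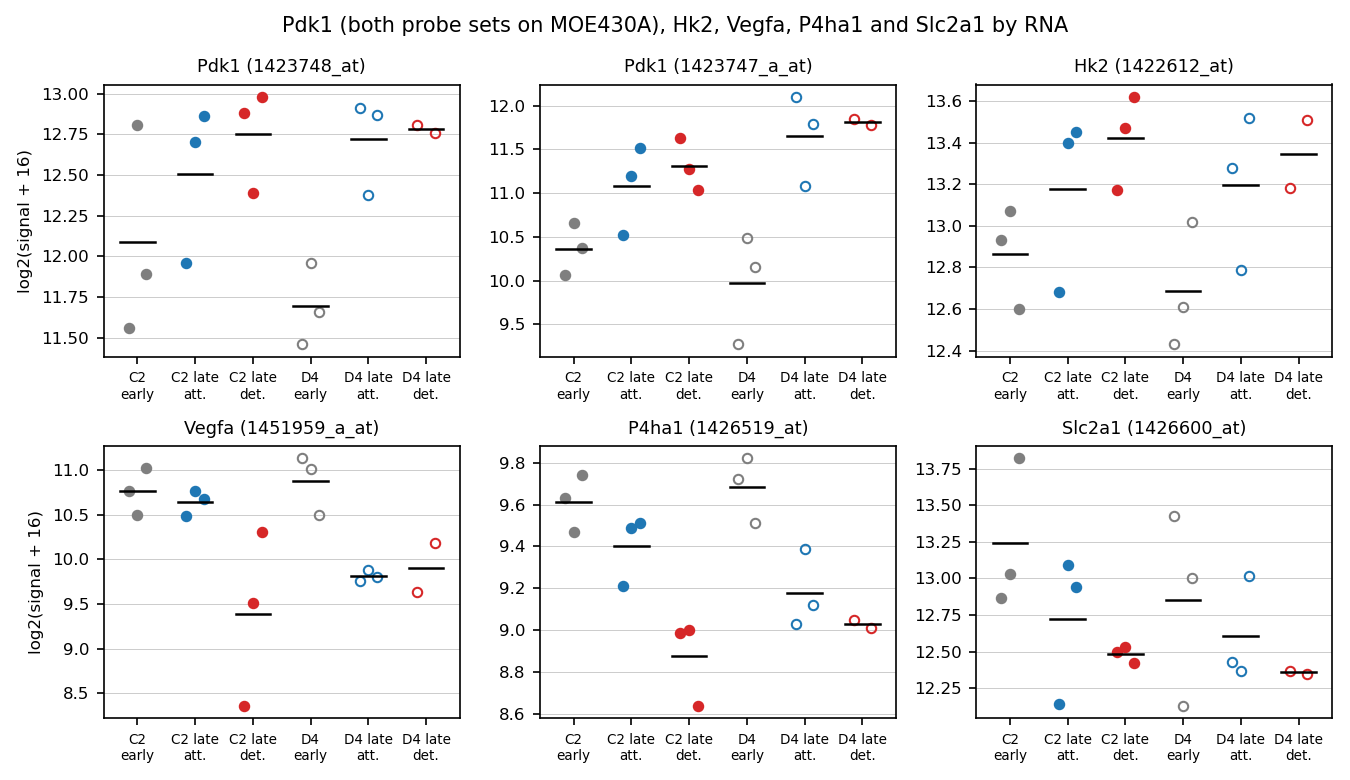
Each point is the log2(signal + 16) of 1 RNA and each bar a group mean, for 6 probe sets; att. is attached and det. is detached, filled points are C2 and open points D4. Early RNAs lie low for Pdk1, from 9.27 to 10.66 at its dimmer probe set, and high for P4ha1, from 9.47 to 9.82, where the detached RNAs reach at most 9.05.

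Fibroblast markers moved with these calls. With the fibroblast marker mean as a covariate, the Pdk1 change was -0.04 (SE 0.626) at the brightest and 0.115 (SE 0.652) at the dimmer probe set, that of Vegfa 0.66 (SE 0.632) and that of the dimmer P4ha1 probe set -0.67 (SE 0.363), all at a limma adjusted p of 0.999. Since the markers themselves separate late from early RNAs, that fit had far wider standard errors than the one without them, and the markers' part in the changes of Pdk1, Vegfa and P4ha1 cannot be told apart from that of passage. Leaving out single RNAs kept the dimmer Pdk1 probe set called in 17 of 17 fits, the brightest in 5 of 17 and Vegfa in 3 of 17, with changes of 1.125 to 1.431, 0.668 to 0.98 and -0.995 to -0.751.

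**Figure D2:**
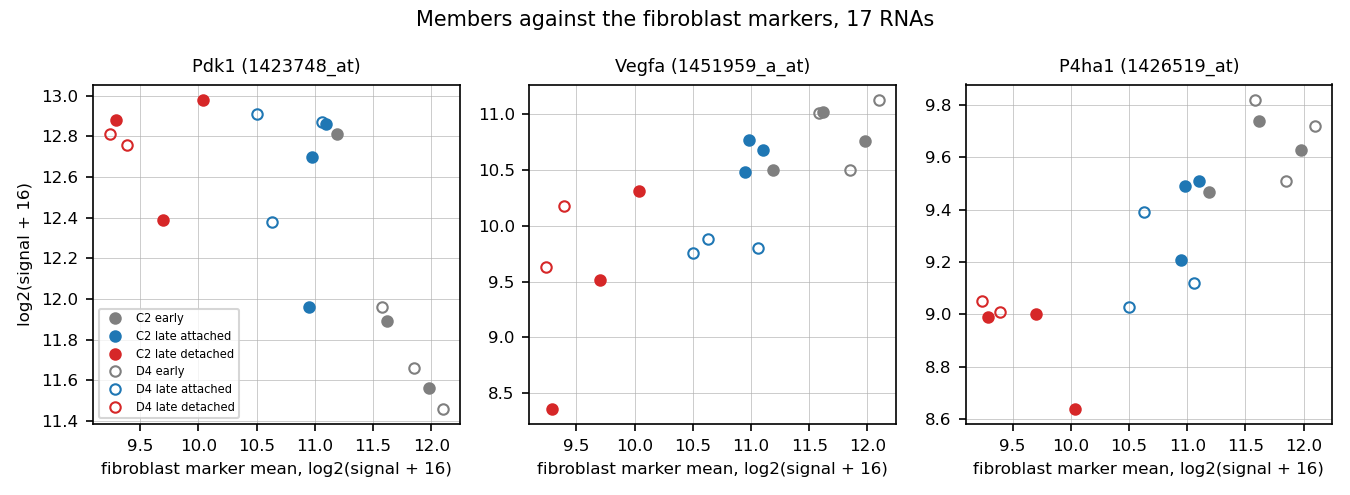
Each point is 1 of the 17 RNAs, with the mean log2(signal + 16) of 21 fibroblast marker genes on the horizontal axis and a probe set of Pdk1, Vegfa or P4ha1 on the vertical axis. Early RNAs (grey) have marker means of 11.19 or more and detached RNAs (red) of 10.04 or less, so the states are also ordered along the horizontal axis.

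The glucose transporters and hexokinases, which bring glucose into the cell and trap it, moved in different directions, and none was called. Slc2a1 (GLUT1) was lower in late passage at each of its 3 probe sets, by 0.44 to 0.50 in size, with -0.50 (SE 0.215, limma adjusted p = 0.233) at the brightest. Its early RNAs ran from 12.13 to 13.82 and its late RNAs from 12.14 to 13.09, with their lower ends together. Slc2a3 (GLUT3) was also lower at all 4 probe sets (-0.78 to -0.30). At 1421924_at and 1427770_a_at attached D4 replicate 3, the RNA with the highest Actb ratio, read 9.81 and 8.84. The other attached D4 RNAs read 11.71 to 12.80 there. Hk2, the hexokinase bound to mitochondria in many growing cells, had the third smallest p of the 30 genes, with a change of 0.51 (SE 0.162, adjusted p = 0.109). Its early RNAs read 12.93, 13.07 and 12.60 in C2 and 12.43, 12.61 and 13.02 in D4, and its detached RNAs 13.17 to 13.62, above all of them. The attached RNAs, 12.68 to 13.52, spanned both ranges. Hk1 had -0.10 (SE 0.164).

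The enzymes of the upper pathway, from phosphofructokinase to triose phosphate isomerase, gave 7 tested genes with changes of -0.40 to 0.03 and no call. Pfkl, Pfkp and Pfkm, the 3 phosphofructokinase isoforms, lay at -0.05 (SE 0.189), -0.12 (SE 0.168) and -0.14 (SE 0.152). Aldoa and Tpi1 lay at 0.03 (SE 0.156) and -0.02 (SE 0.183), with 95% intervals of -0.30 to 0.37 and -0.41 to 0.38, and changes smaller than these bounds were not detectable here. The probe sets of 4 of these genes differed in sign: Pfkl ran from -0.32 to 0.02, Pfkp from -0.17 to 0.17, Aldoa from -0.15 to 0.03 and Tpi1 from -0.05 to 0.01. Pfkfb3, which makes the activator of phosphofructokinase, had the lowest value at -0.40 (SE 0.277). Gpi1 had no probe set that carried its symbol.

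In the lower pathway Pgk1, Pgam1 and Pkm, which together with enolase carry out the steps from bisphosphoglycerate to pyruvate, had changes of -0.23 (SE 0.193), 0.13 (SE 0.117) and -0.10 (SE 0.123), none called. At its brightest probe set Pgk1 in early C2 was close to constant at 16.14, 16.17 and 16.19, above the 6 late C2 RNAs, of which the lowest read 15.26, whereas early D4 spread over 16.40, 15.42 and 15.27 and overlapped late D4. The other 2 tested Pgk1 probe sets did not show this in C2, where late minus early was -0.05 (SE 0.182) and 0.15 (SE 0.231) against -0.50 (SE 0.268) at the brightest, and their early and late RNAs overlapped. Gapdh was carried only by control probe sets, which were not tested. Its middle control on MOE430A read 16.55 ± 0.13 (SD, n = 3) in early, 16.40 ± 0.14 in attached and 16.35 ± 0.26 in detached C2, and 16.45 ± 0.27, 16.30 ± 0.21 and 16.38 ± 0.06 (n = 2) in D4. Eno1 had no probe set of its symbol, and Eno2 was too dim to test.

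Lactate dehydrogenases interconvert pyruvate and lactate, and the monocarboxylate transporters of the Slc16 family carry lactate across the membrane. Ldha had a change of 0.06 (SE 0.196) and Ldhb of -0.48 (SE 0.21, limma adjusted p = 0.247). The Ldhb value came from D4, where early RNAs read 14.24, 14.32 and 13.18 and late RNAs 12.30 to 13.32. C2 read 12.93, 13.03 and 13.27 early and 12.84 to 13.55 late, with full overlap. Slc16a1 (MCT1) had 0.25 (SE 0.137) and Slc16a3 (MCT4) -0.26 (SE 0.299).

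Of the other pyruvate dehydrogenase kinases, Pdk3 had a change of 0.17 (SE 0.156), and Pdk2 was too dim to test. Hif1a, the gene of the regulated HIF-1 subunit, lay at 0.07 (SE 0.134, 95% interval -0.22 to 0.35), Egln1 at -0.17 (SE 0.372) with 0.15 (SE 0.276) at its other probe set, and Egln3, a hydroxylase that HIF-1 itself induces, at 0.44 (SE 0.207, limma adjusted p = 0.284). Egln3 was above 0 at both probe sets (0.44 and 0.45), and its early D4 RNAs (8.97, 9.75 and 9.29) were lower than all but 1 of the late D4 RNAs (9.58 to 10.44) at the brightest. In C2 the late minus early values of the brightest and the other probe set were 0.09 (SE 0.287) and -0.25 (SE 0.367), against 0.79 (SE 0.299) and 1.14 (SE 0.382) in D4. The other Hif1a probe sets lay at 0.36 (SE 0.173, limma adjusted p = 0.295) and 0.11 (SE 0.414). At the latter (1448183_a_at) attached D4 replicate 3, the RNA with the highest Actb ratio, read 6.71. The other attached D4 RNAs read 9.62 and 10.41 there.

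All 7 tested genes grouped here as hypoxia targets outside metabolism had late minus early values below 0, with a median of -0.35. They ran from -0.88 for Vegfa to -0.10 for Bnip3, and Vegfa alone was called. Egln3, induced by HIF-1 but grouped with the hydroxylases, lay above 0 at 0.44, with 0.67 in attached and 0.21 in detached cells. The 7 values also lay below 0 under quantile normalization and division by the array median. They differed between the late states: against early passage the attached cells had 3 of the 7 above and 4 below 0, with a median of -0.01, and the detached cells all 7 below 0, with a median of -0.58. By line, 2 of the 7 lay above 0 in C2, Car9 at 0.72 and Bnip3 at 0.04, and none in D4. Fibroblast markers were lower in late passage as well, most of all in detached cells. Their part in the values of the 7 genes as a set was not tested. P4ha2 lay at -0.30 (SE 0.221), Car9, a membrane carbonic anhydrase, at -0.35 (SE 0.313), Ndrg1, a stress-responsive gene, at -0.21 (SE 0.183) and Ddit4, an inhibitor of mTORC1, at -0.37 (SE 0.28). Bnip3l, like Bnip3 a receptor for the removal of mitochondria, had only probe sets that carried several symbols and is not described.

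Separating the late states, attached minus early passage gave 0 of 30 calls in limma, while 0.171% of all tested genes were called. At an unadjusted p under 0.05 there were 4 of the 30, against 10.4% of all tested genes. The smallest adjusted p was that of Pdk1, at 0.72 (SE 0.224, limma adjusted p = 0.221), followed by Egln3 at 0.67 (SE 0.234, adjusted p = 0.27). Detached minus early passage gave 1 call, Vegfa, which fell by 1.17 (SE 0.273, 0.445-fold, adjusted p = 0.0281), while over all genes 0.775% were called higher and 1.91% lower. Pdk1 at 0.88 (SE 0.237, adjusted p = 0.0508) and Hk2 at 0.61 (SE 0.195, adjusted p = 0.0892) came closest to being called higher. The dimmer probe sets of Pdk1 (1.40, SE 0.26, adjusted p = 0.00708) and P4ha1 (-0.69, SE 0.13, adjusted p = 0.00729) were called, and 2.23% of all probe sets were. The P4ha1 call was lost under quantile normalization (adjusted p = 0.0725) and division by the array median (adjusted p = 0.0719). Both comparisons share the early RNAs. The Vegfa call held in 11 of 17 fits that left out 1 RNA. It was lost at the other Vegfa probe set (adjusted p = 0.245) and under division by the array median (adjusted p = 0.0523), where Pdk1 was called instead (adjusted p = 0.0443). On MOE430A 189 probe sets were called higher and 467 lower in detached cells, but 314 and 278 when each array was divided by its median, which moved the median of all probe sets from -0.03 to 0.17. With the fibroblast marker covariate the detached change of Vegfa was 1.06 (SE 0.901) and that of the dimmer Pdk1 probe set -0.32 (SE 0.93).

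**Figure D3:**
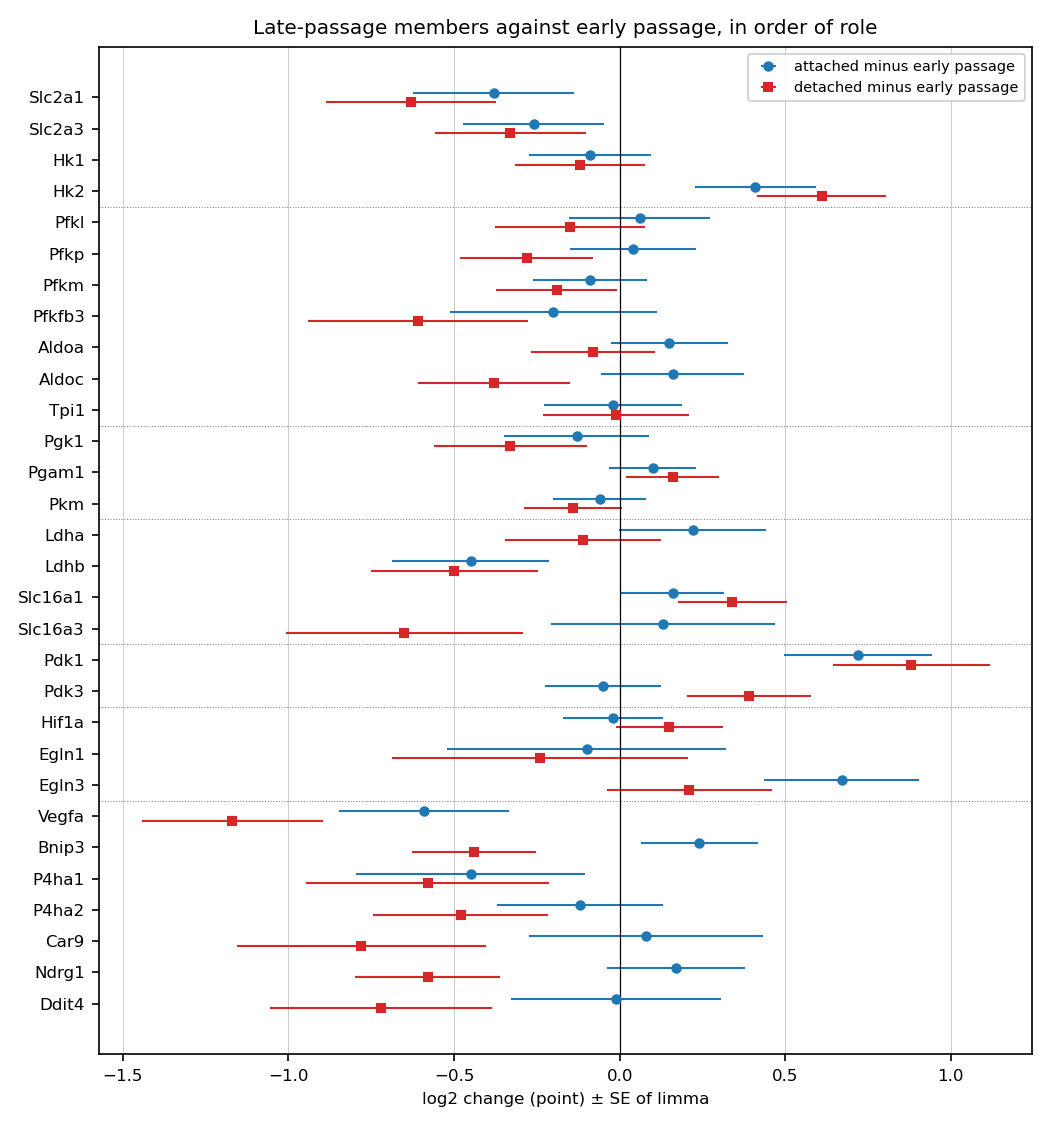
Log2 changes of the 30 tested genes for attached (blue circles) and detached (red squares) late-passage cells against the same early RNAs, with bars of 1 SE from limma and dotted lines between roles. Pdk1 and Hk2 lie above 0 in both states, and Vegfa lies lowest in detached cells at -1.17.

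Arrays of detached and early cells of the same line shared 1 fluidics run in each line on MOE430A. Within these runs, with 2 RNAs on each side, detached minus early was 0.50 in C2 and 1.08 in D4 for Pdk1 (1423748_at), and -0.72 and -1.17 for Vegfa. For Hk2 it was 0.54 and 0.83, and for Slc2a1 -0.47 and -0.42. Attached and early arrays of the same line shared no run, so that comparison has no value within a run.

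Detached minus attached compares the 2 states of late-passage cells in the same medium. On MOE430A the attached D4 arrays were all in fluidics run 3 on day 1, and the detached D4 arrays in run 4 on day 2. State, run and day therefore cannot be told apart in D4. In C2 only detached replicate 1 shared the run of the attached arrays. Attached D4 replicate 3 was also logged under a protocol other than the usual one. In limma 0 of the 30 genes were called, and 0.242% of all tested genes were called lower in detached cells. An unadjusted p under 0.05 was found for 6 of the 30, against 10.7% of all tested genes. Of the 30 genes 23 lay below 0, with a median of -0.21 against 0.01 over all tested genes. Averaged over the lines, all 7 hypoxia targets outside metabolism were below 0, with a median of -0.68. Under quantile normalization or division by the array median 6 of the 7 were, with P4ha1 at 0.13 and 0.09. Within each line 6 of the 7 lay below 0, all but P4ha1 in C2 (0.37) and Vegfa in D4 (0.09). The smallest adjusted p was that of Bnip3, a receptor that marks mitochondria for autophagy, at -0.68 (SE 0.188, limma adjusted p = 0.14). Ndrg1 followed at -0.75 (SE 0.22, adjusted p = 0.164). When each array was instead divided by its median, the median of all MOE430A probe sets moved from -0.02 to 0.20 and 14 of the 30 genes lay below 0, with a median of 0.02, which is still below that of all probe sets.

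Bnip3 read 11.58, 11.50 and 11.66 in attached C2 and 11.23, 10.99 and 10.49 in detached C2. In D4 it read 10.81, 11.65 and 11.86 attached and 10.72 and 10.78 detached. Detached RNAs were the lower within each line, and 1 attached D4 RNA, at 10.81, lay just above the detached ones. Ndrg1 read 10.01, 10.23 and 10.02 against 9.35, 8.92 and 8.86 in C2, and 9.48, 9.62 and 10.53 against 9.34 and 9.48 in D4. The states met at 9.48 only after rounding. Before rounding every detached RNA lay below every attached one, and how many of all tested genes did so was not counted. Fibroblast markers were lower in detached than in attached cells as well, with 6 of 19 tested called. Within groups over the 17 RNAs, their mean correlated with Ndrg1 at r = 0.55 and with Bnip3 at r = -0.17. Of the other hypoxia targets outside metabolism, Vegfa and Ddit4 had r = 0.61, P4ha1 0.56, P4ha2 0.41 and Car9 -0.24. The markers' part in these differences was not tested.

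Ddit4 was among the 6 genes with the widest range of group means. It read 11.68, 12.21 and 12.62 in attached and 10.88, 10.66 and 11.47 in detached C2, without overlap. In D4 it read 10.99, 12.05 and 12.01 attached and 10.88 and 11.98 detached, and the states overlapped. The difference was -0.71 (SE 0.336, limma adjusted p = 0.342), and the early RNAs ran from 11.02 to 12.63. Slc16a3, the lactate exporter, differed by -0.78 (SE 0.358, adjusted p = 0.329). Aldoc, an aldolase isoform, differed by -0.54 (SE 0.229, adjusted p = 0.288), with -0.33 in C2 and -0.76 in D4. Detached D4 read 9.49 and 9.68 against 9.57, 10.58 and 10.88 attached, and detached C2 read 10.38, 10.46 and 10.48 against 10.43, 11.06 and 10.82, with overlap in both lines.

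**Figure D4:**
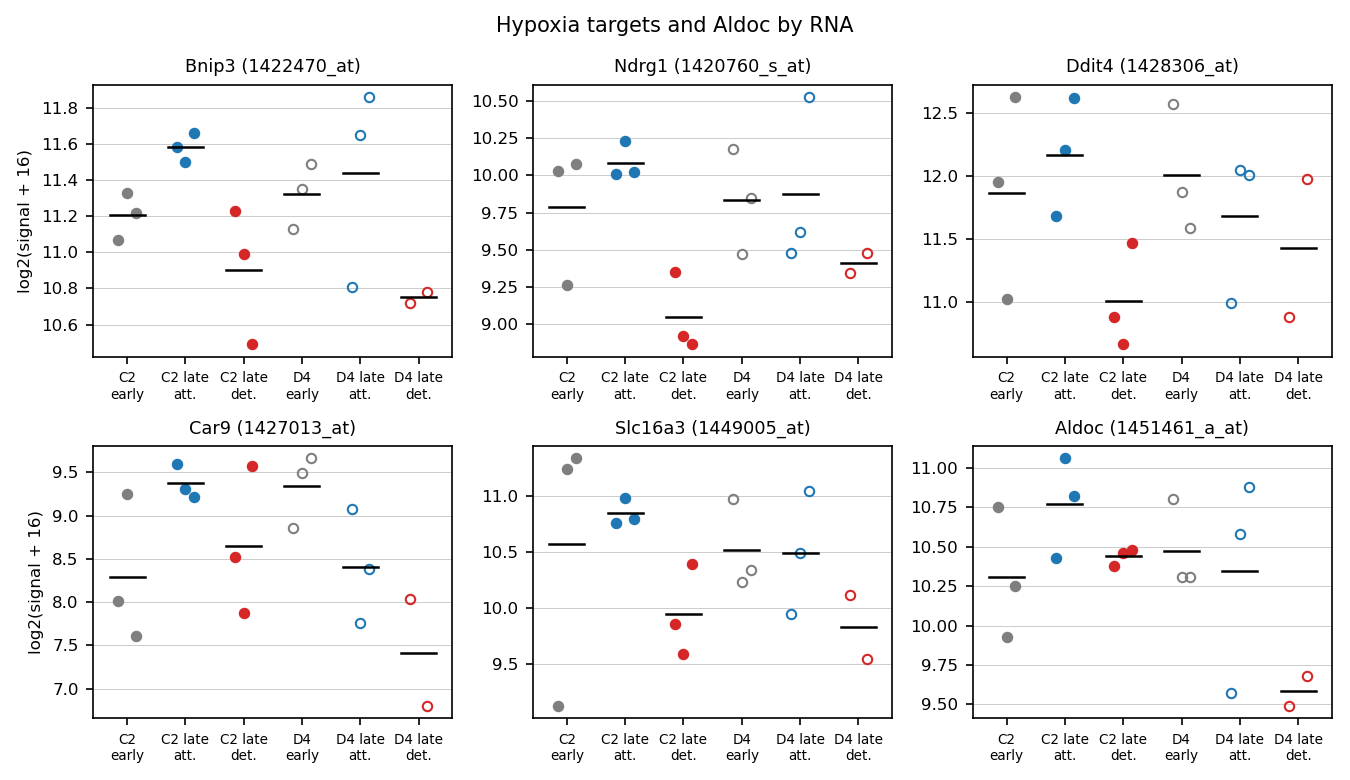
Each point is the log2(signal + 16) of 1 RNA and each bar a group mean, for 6 probe sets; att. is attached and det. is detached, filled points are C2 and open points D4. For Bnip3 the detached RNAs lie between 10.49 and 11.23 in C2, below the attached RNAs at 11.50 to 11.66.

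The lines were also compared with each other. On MOE430A all C2 arrays and the attached D4 arrays ran on day 1, and the early and detached D4 arrays on day 2. Day therefore enters D4 minus C2, late minus early in D4 and the difference between the lines. The part of day in these values was not tested. D4 minus C2 gave 0 of 30 calls in limma, and 0.0% of all tested genes were called. Slc16a1 alone (0.29, SE 0.132) had an unadjusted p under 0.05, as had 6.15% of all tested genes. The difference between the lines in the passage change gave 0 calls, with 0.00711% of all genes called. Its unadjusted p was under 0.05 for 3 of the 30 genes and for 6.22% of all genes. Within a line, late minus early called none of the 30 genes in C2 (0.0498% of all genes called) and none in D4 (0.676% called). An unadjusted p under 0.05 was found for 1 of the 30 in C2 and 7 in D4, against 8.29% and 14.5% of all genes. Counting all probe sets of the members, only the dimmer Pdk1 probe set was called within a line, in D4, where 0.53% of all probe sets were.

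Car9 had the smallest p for a line difference. It read 8.01, 9.25 and 7.61 in early C2 and 8.86, 9.49 and 9.66 in early D4. Attached cells read 9.60, 9.31 and 9.21 in C2 and 9.08, 7.76 and 8.38 in D4. Detached cells read 8.52, 7.87 and 9.57 in C2 and 8.03 and 6.80 in D4. Late minus early was thus 0.72 (SE 0.433) in C2 and -1.43 (SE 0.451) in D4, a difference of -2.15 (SE 0.625, limma adjusted p = 0.535). Early and late RNAs overlapped in both lines.

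Ldhb followed with a line difference of -1.23 (SE 0.42, limma adjusted p = 0.535), and its 4 probe sets had line differences of -1.23 to -0.76. In D4 the 4 probe sets lay at -1.09 to -0.72 in late passage, with the smallest adjusted p at 0.0615 in limma, and in C2 at -0.15 to 0.20. Aldoc had a line difference of -0.81 (SE 0.382, adjusted p = 0.628). The test for any difference among the 6 groups (limma's moderated F) called 0 of the 30 genes, while 0.498% of all tested genes were called. Its smallest adjusted p was 0.167, for Vegfa. Unadjusted, 4 of the 30 had a p under 0.05, against 11.1% of all tested genes.

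**Figure D5:**
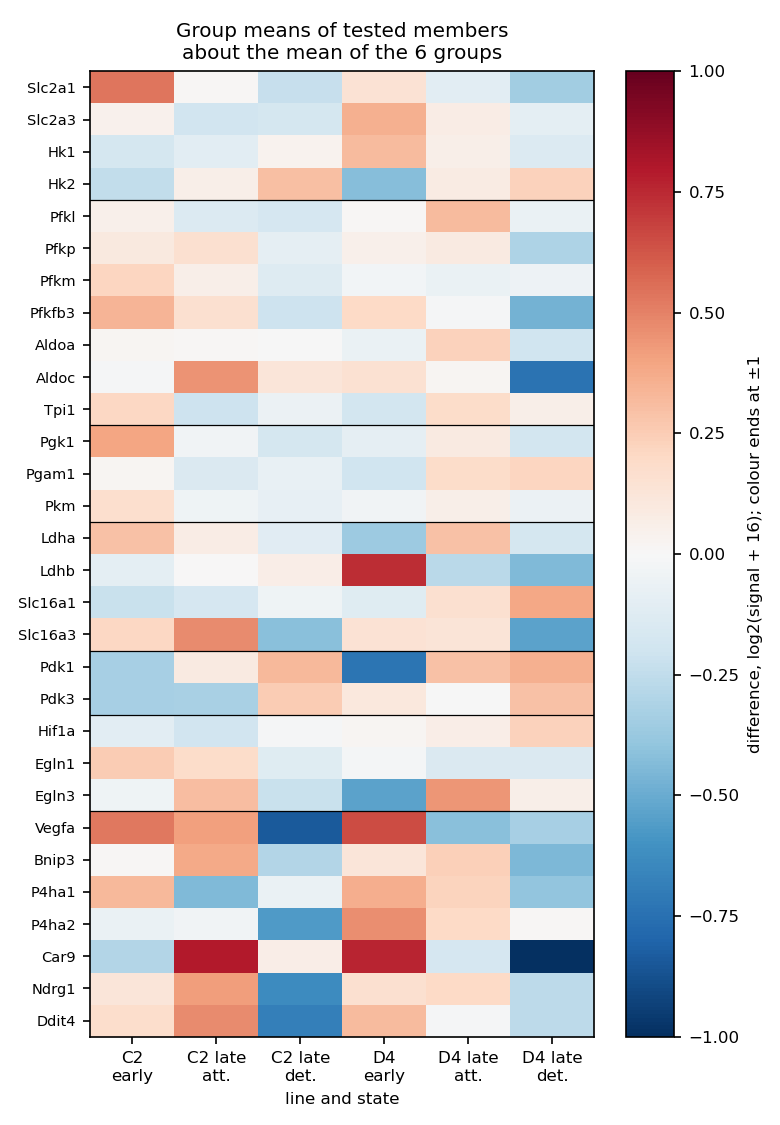
Mean log2(signal + 16) of each line and state minus the mean of the 6 groups, for the 30 tested genes in order of role; red is higher and blue lower, and the colour ends at 1 in either direction. Among the glycolytic enzymes the deepest colours are those of Aldoc in detached D4 (mean 9.58) and Ldhb in early D4 (mean 13.92). The hypoxia targets at the bottom are mostly blue in detached cells, and the group means of Car9 span 1.96.

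Further genes of both pathways were taken from lists that exclude the 36 genes. Of 33 tested genes of other glucose metabolism none was called in late minus early passage in limma, with changes of -0.66 to 1.03 and a median of 0.16. Of these, 25 lay above and 8 below 0, where 52.1% of all tested genes lay below 0. An unadjusted p under 0.05 in limma was found for 3, against 15.2% of all tested genes. Of 33 tested genes of the wider hypoxia pathway, none was called higher and 3 lower, where 0.576% and 1.28% of all tested genes were. Their changes had a median of -0.13, with 14 above and 19 below 0. Unadjusted, 9 of these 33 genes had a limma p under 0.05, against 15.2% of all tested genes. Lox, which cross-links collagen and is also made by fibroblasts, fell by 1.63 (SE 0.273, adjusted p = 0.00566). Anxa2, a membrane-binding protein of many adherent cells, fell by 1.496 (SE 0.269, adjusted p = 0.00858). Cited2, an inhibitor of HIF-1 activity that HIF-1 induces, fell by 0.54 (SE 0.116, adjusted p = 0.0215): its early RNAs lay between 12.07 and 12.63 and its late RNAs between 11.50 and 11.94, without overlap. The Cited2 call was lost without the filter on dim probe sets (adjusted p = 0.0642), with division by the array median (adjusted p = 0.122) and in 3 of 17 fits that left out 1 RNA. With the fibroblast marker covariate, Lox and Anxa2 had changes of 0.69 (SE 0.64) and 0.82 (SE 0.625), and Cited2 of -0.75 (SE 0.387), all at an adjusted p of 0.999.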

How the data were processed

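The authors deposited 1 signal intensity per probe set and array, from Affymetrix MAS5 as the submitters' processing notes have it (listed as MAS 5; its release and detection calls are not given in the sources used here). MAS5 scales each array separately, so that on all 34 arrays the deposited values had 2% trimmed means of 1500 to 1501. Scanner information files, also deposited, gave chip lots and times; arrays logged within 30 minutes on a station were taken as 1 fluidics run. The precision of arrays is limited by the 17 RNAs.

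Intensities were analysed as log2(signal + 16) without further scaling. A probe set was tested where 2 or more of the 17 arrays of its type placed it above the median signal; control probe sets were left out. limma 3.58.1 in R 4.3.3 was fitted to each array type separately, with 1 coefficient for each of the 6 groups and Benjamini-Hochberg adjustment over all probe sets of that type. Symbols came from the platform annotation, updated through RefSeq gene identifiers (GRCm38.p6): 20393 probe sets on MOE430A and 14674 on MOE430B had 1 symbol, 691 and 245 several, and 1606 and 7656 none. The fit was tested on simulated data.

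The genes, the marker and pathway lists and the rule for named genes were chosen with earlier results of these data known. Full statistics were given to genes called in a contrast and to the 6 with the widest range of group means; other genes are summarised, and those named beyond this rule (Hk2, Slc2a1, P4ha1, Bnip3, Ndrg1, Slc16a3, Pgk1, Egln3) were chosen after their values were seen. Alternatives were other pseudocounts, filters, scalings, weights, blocks, a fibroblast marker covariate, another variance prior, other probe sets of a gene and leaving out RNAs.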

Additional observations from a re-analysis of the deposited data

How the results depend on the processing

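Of 1028 values of named genes and probe sets under the alternatives, 937 kept their direction or stayed without a call, and kept their side of the threshold. The call was lost by 75 and gained by 8, and 8 reversed. The 937 include values that had no call to lose. These counted as kept even where the sign changed, as for Aldoc in late minus early (-0.203 to 0.001). All 8 reversals came from the fibroblast marker covariate: late minus early was -0.043 for Pdk1, 0.663 for Vegfa, 0.692 for Lox and 0.818 for Anxa2, and detached minus early was 1.062 for Vegfa, -0.318 for the dimmer Pdk1 probe set, 0.780 for Lox and 0.969 for Anxa2. The covariate left 0 members called in late minus early and 0 in detached minus early; the cause was not tested.

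Of the 2 members called between late and early passage, 1 was left with a pseudocount of 1 (Pdk1), with quantile normalization (Pdk1) and without attached C2 replicate 1 and attached D4 replicate 3 together (Pdk1), and 0 without a filter on dim probe sets, where more probe sets are tested, or with division by the array median. Without single RNAs the count ran from 0 to 2. The labels give the groups the same replicate numbers, but deviations of same-numbered RNAs correlated at -0.221 to 0.176 and those of other RNAs at -0.236 to 0.236, so the numbers were not taken as pairs; with them as a replicate block, 0 members were called in late minus early. For detached minus early, where 1 was called, the count was 0 without the filter, 2 with a pseudocount of 64, 3 with the 75th percentile filter, 3 with trended robust eBayes, 3 without the 2 attached RNAs named above and 4 with array weights (Hk2, Ndrg1, Pdk1 and Vegfa), and ran from 0 to 2 without single RNAs. It stayed at 1 with division by the array median and with other probe sets of a gene, but the gene called was then Pdk1 (adjusted p = 0.0443 in limma) or P4ha1 (0.00729) and not Vegfa (0.0523 and 0.245). Array weights gave 2 calls in detached minus attached (Bnip3 and Ndrg1) and 1 in the test over the 6 groups (Vegfa), where the main count was 0, and both ran from 0 to 1 without single RNAs. The counts of 0 for attached minus early, D4 minus C2 and the line difference stayed at 0 in all these alternatives.

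Vegfa lost its late minus early call with its other probe set (adjusted p = 0.303 in limma; 0.0103 to 0.303 over its alternatives without the covariate). In late minus early passage Pdk1 at its brightest probe set was called in 15 of 31 alternatives and Vegfa in 9 of 31. The dimmer Pdk1 probe set was called in 28 of 29 alternatives and the dimmer P4ha1 probe set in 21 of 28. Cited2 was called in 23 of 29. Dim probe sets, chip lots of MOE430B and 2 or 3 RNAs a group limit these values.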
